A study of Homo sapiens with 12 samples.

Results

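The genes described here make ribosomes: 41 were named, and they encode RNA polymerase I subunits and factors, small nucleolar ribonucleoprotein (snoRNP) proteins, assembly factors of the small and large ribosomal subunits, and abundant nucleolar phosphoproteins. They were chosen by name, with earlier results of these data known, and 36 of the 41 had a probe set paired with that gene alone. All 36 passed the filter on low signal and were among the 13673 genes tested. The 5 others were not analysed here: NOP56, DKC1, BOP1 and PPAN had probe sets listed only together with other gene symbols, and GNL3 had none listed.

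Messenger RNA was measured in U2OS, a cell line from a human osteosarcoma whose p53 is wild type, on Affymetrix Human Genome U133 Plus 2.0 arrays. There were 4 groups of 3 arrays. The doxorubicin group was given 0.6 µg/ml doxorubicin, an anthracycline that traps topoisomerase II on broken DNA, for 24 hours, and its control was untreated. The nutlin-3 group was given 10 µM nutlin-3, which frees p53 from MDM2 without breaking DNA, for 24 hours, and its control was 0.1% DMSO, the solvent, for the same time. All groups are this single line, and the labels do not say that replicates were separate cultures, so the p-values speak only to the spread among these arrays, part of which may be technical. Of 8 osteoblast markers, 4 passed the filter, among them COL1A1 and SPARC with lowest group means of 29945 and 18216, whereas COL1A2 and ALPL stayed under the filter.

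Ribosome production starts in the nucleolus, where RNA polymerase I copies the ribosomal DNA into a long precursor RNA. Box C/D and box H/ACA snoRNPs guide its methylation and pseudouridylation, the small subunit processome folds and cuts its first part, and a separate set of factors matures the large subunit. MYC is known to drive many of these genes, and when ribosome assembly stalls, free ribosomal proteins bind MDM2 and p53 accumulates. The arrays read the messenger RNAs of the assembly machinery, not the rate at which ribosomal RNA is made.

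One sequence feature was searched for because it is the site that MYC and its partner MAX bind, the palindromic E-box CACGTG. RefSeq promoter windows of build GRCh38.p14, 250 bases before to 50 bases after the start site, were at hand for 30 of the 36 genes (none for NOP58, POLR1E, RRP12, RRS1, RRP1B and NOLC1). The E-box stood in 11 of 30 windows (36.7%), against 9.91% of the windows of 11013 genes tested and 7.43% of all 27305 windows. The 30 bases around it, with the E-box in capitals, are shown first for the 5 genes that were lower with doxorubicin: FBL at chr19:39846356-39846385 on the minus strand, UTP20 at chr12:101280083-101280112 on the plus strand, NOP14 at chr4:2963374-2963403 on the minus strand, NAT10 at chr11:34105602-34105631 on the plus strand and MRTO4 at chr1:19251807-19251836 on the plus strand. All are written 5′ to 3′ on the gene's own strand.
FBL: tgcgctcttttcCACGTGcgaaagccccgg
UTP20: cttttttccgtcCACGTGacccactcaggc
NOP14: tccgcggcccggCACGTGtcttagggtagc
NAT10: aatgcgcttgcgCACGTGctgtctaccagt
MRTO4: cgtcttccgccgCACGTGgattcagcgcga

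The same was done for genes that were higher with nutlin-3, NOP10 with an E-box at chr15:34343289-34343318 and another at chr15:34343130-34343159 on the minus strand, and WDR43 with one at chr2:28894658-28894687 on the plus strand. RRP9, higher with doxorubicin, had its E-box at chr3:51941892-51941921 on the minus strand.
NOP10, far site: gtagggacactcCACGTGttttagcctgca
NOP10, near site: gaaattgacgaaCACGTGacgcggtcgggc
WDR43: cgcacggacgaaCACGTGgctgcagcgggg
RRP9: gggttcagctgcCACGTGagttctgcggcc
The E-box began 15 bases before the start site in NAT10, 10 before it in UTP20 and 5 before it in RRP9. In FBL it began at base 7, with the start site counted as base 1. The remaining matches were in UTP14A, PES1 and NOP2. Of the windows of genes lower with doxorubicin 5 of 11 held a match, and of those of genes higher with nutlin-3 3 of 5; UBTF, the only gene lower with nutlin-3, had none. Of the other elements searched on both strands, TCTCGCGA was in 3 windows (10.0%, against 2.21% of genes tested), GGGCGG in 19 (63.3%, against 68.2%), CCAAT in 12 of 30 (against 36.2%), TATAAA in 1 (3.33%, against 6.05%) and TTTGGCGC in 0 (against 1.01%). Matches of different elements overlapped in 0 of the members' windows, and a match is a stretch of letters, not a measured binding site.

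The p53 targets used as a check were higher with both agents. CDKN1A, the gene of the cell cycle inhibitor p21, averaged 7678 ± 1114 with doxorubicin and 1361 ± 34.1 in untreated cells, and 7470 ± 393 with nutlin-3 and 1507 ± 187 in DMSO (signal, SD, n = 3 each). MDM2, whose product marks p53 for degradation, had log2 changes of 1.42 (SE 0.07) with doxorubicin and 2.14 (SE 0.07) with nutlin-3. The p53 transcript was not analysed here. Arrays were scaled by the authors to a common trimmed mean of about 500.06 units, so every value is a share of the RNA on the array. Fewer transcripts per cell and fewer cells that express a gene cannot be told apart in such bulk samples. Within a group, arrays correlated across genes at 0.98 to 0.99.

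The doxorubicin arrays stood apart in 2 of 3 ratios that are read as signs of RNA quality. The ratio of 3′ to 5′ signal of ACTB was 2.48, 3.29 and 3.59 on the doxorubicin arrays, against 1.44, 1.57 and 1.58 on the untreated arrays. The exact 2-sided permutation p was 0.1, the smallest that 3 arrays against 3 can give. With nutlin-3 it averaged 1.31 ± 0.026, and in DMSO 1.28 ± 0.0281 (SD, n = 3 each; exact permutation p = 0.2). The spiked dap control, added RNA that human cells do not make, had ratios of 3.76, 7.79 and 11.5 on the doxorubicin arrays, against 2.49, 3.27 and 2.75 on the untreated arrays. The GAPDH ratio overlapped, at 1.07 ± 0.116 on the doxorubicin arrays and 1.02 ± 0.0356 on the untreated arrays (SD, n = 3 each; exact permutation p = 0.6). Cell RNA, labelling and array cannot be told apart in the ACTB and GAPDH ratios. The dap ratio reads the added RNA, not the cells' own, and labelling and array cannot be told apart in it. Doxorubicin replicate 1 had the lowest ACTB and dap ratios of its group, and the total counts against untreated cells and between the agents are given below with that replicate alone too.

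Doxorubicin lowered more of these genes than it raised. At a limma adjusted p under 0.05 over all genes tested, 12 of 36 (33.3%) were lower and 4 (11.1%) were higher, while 25.6% of all genes were called lower and 30.1% higher. The median log2 change was 0.02, against 0.08 over all genes, so the median stayed near 0 while 12 members fell. The 12 were FBL, NHP2, HEATR1, UTP20, NOP14, NAT10, WDR12, MRTO4, NIP7, RRP1B, GNL3L and NPM1. Treated and control arrays did not overlap in 11 of them (all but NOP14), a count among called genes with no share over all genes beside it. Changes lay between -0.74 and 0.53, and 0 genes changed by as much as 1 log2 unit with either agent. With doxorubicin replicate 1 alone against the untreated arrays, a fit in which the lone array is assumed to vary like those of the other groups, 4 were higher and 11 lower, against 24.2% and 22.4% of all genes. RRP12, NIP7 and RRP1B were then not called, while BRIX1 was higher and GAR1 lower. Without untreated replicate 3, 7 genes were higher.

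The split depended on how arrays were scaled. With each array centred on its median, which moved the median of all genes to -0.10, 1 gene was higher with doxorubicin (POLR1E) and 15 were lower. Over all genes 20.0% were then called higher and 32.1% lower. Higher calls were then 6.25% of the members' calls in place of 25.0%, while over all genes they were 38.4% in place of 54.0%. The 12 genes called lower were all among the 15, and the 3 added were POLR1A, POLR1B and PES1. Signal of leukocyte markers, of which 3 of 5 passed the filter, summed to 790 to 1025 on the doxorubicin arrays and 395 to 524 on the untreated arrays. LAPTM5 was called higher, at a mean of 509 with doxorubicin and 85.1 in untreated cells. CD3E (83.7 with doxorubicin, 54.4 in untreated cells) and CD79A (264 with doxorubicin, 259 in untreated cells) passed the filter and were not called. PTPRC (81.8 with doxorubicin, 50.6 in untreated cells) and CD14 (7.51 with doxorubicin, 2.98 in untreated cells) were under the filter. Epithelial markers, of which 3 of 4 passed the filter, summed to 1413 to 1733 on the doxorubicin arrays and 2059 to 2233 on the untreated arrays. EPCAM (1313 with doxorubicin, 1625 in untreated cells) and KRT14 (109 with doxorubicin, 372 in untreated cells) were called lower. CDH1 (91.0 with doxorubicin, 78.2 in untreated cells) was not called and its mean lay the other way, and KRT5 was under the filter. Of 4 endothelial markers only PECAM1 passed the filter, at 196 with doxorubicin and 171 in untreated cells. The part of the 3′ to 5′ ratios and of these markers in the doxorubicin counts was not tested.

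Nutlin-3 raised 7 of the 36 genes (19.4%) and lowered 1 (2.78%), against 12.6% of all genes called higher and 13.9% called lower. The 7 were NOP10, POLR1A, POLR1D, WDR43, UTP14A, RRP12 and RRS1, and the gene that fell was UBTF. Nutlin-3 and DMSO arrays did not overlap in any of these 8, again a count among called genes with no share over all genes beside it. The median change was 0.15, against 0.01 over all genes. With median centring 3 were higher (POLR1A, WDR43 and RRS1) and UBTF was lower, against 8.53% and 11.8% of all genes. Higher calls were then 75.0% of the members' calls in place of 87.5%, and over all genes 41.9% in place of 47.5%. Without DMSO replicate 1, or without nutlin-3 replicate 2, 3 genes were higher and 0 lower, and UBTF was also lost without DMSO replicate 2 or nutlin-3 replicate 1. The leukocyte markers summed to 482 to 605 on the nutlin-3 arrays and 295 to 307 on the DMSO arrays. LAPTM5 was called higher, at a mean of 258 with nutlin-3 and 60.8 in DMSO. CD3E (57.9 with nutlin-3, 48.6 in DMSO) and CD79A (179 with nutlin-3, 140 in DMSO) were not called. The epithelial markers summed to 785 to 895 on the nutlin-3 arrays and 1082 to 1282 on the DMSO arrays, with EPCAM called lower (620 with nutlin-3, 1008 in DMSO). KRT14 (90.8 with nutlin-3, 97.2 in DMSO) and CDH1 (98.3 with nutlin-3, 70.4 in DMSO) were not called. The part of the leukocyte and epithelial markers in these counts was not tested.

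The responses to the agents were then compared directly, as the doxorubicin change minus the nutlin-3 change in one limma contrast. It was below 0 in 26 of 36 genes, with a median of -0.25, against 0.07 over all genes. It was called lower in 10 (27.8%) and higher in 3 (8.33%), against 17.7% and 21.8% of all genes. The 10 were FBL, NHP2, POLR1A, HEATR1, UTP20, NAT10, WDR12, MRTO4, NIP7 and GNL3L, and the 3 were NOP58, POLR1E and UBTF. Of the 12 genes that fell with doxorubicin, 9 thus also differed between the agents. NOP14, RRP1B and NPM1 did not pass that test in the probe set read for each gene. With median centring 15 were lower and 1 higher, against 19.9% and 13.0% of all genes. Higher calls were then 6.25% of the members' calls in place of 23.1%, and over all genes 39.5% in place of 55.1%. With doxorubicin replicate 1 alone, 13 were lower and 2 higher, against 16.7% and 18.0% of all genes. The higher calls were 1 in place of 3 without untreated replicate 2, doxorubicin replicate 1 or 2, or DMSO replicate 1. RRP12 was higher with both agents, 0 genes were lower with both, and 13 were called with neither.

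**Figure D1:**
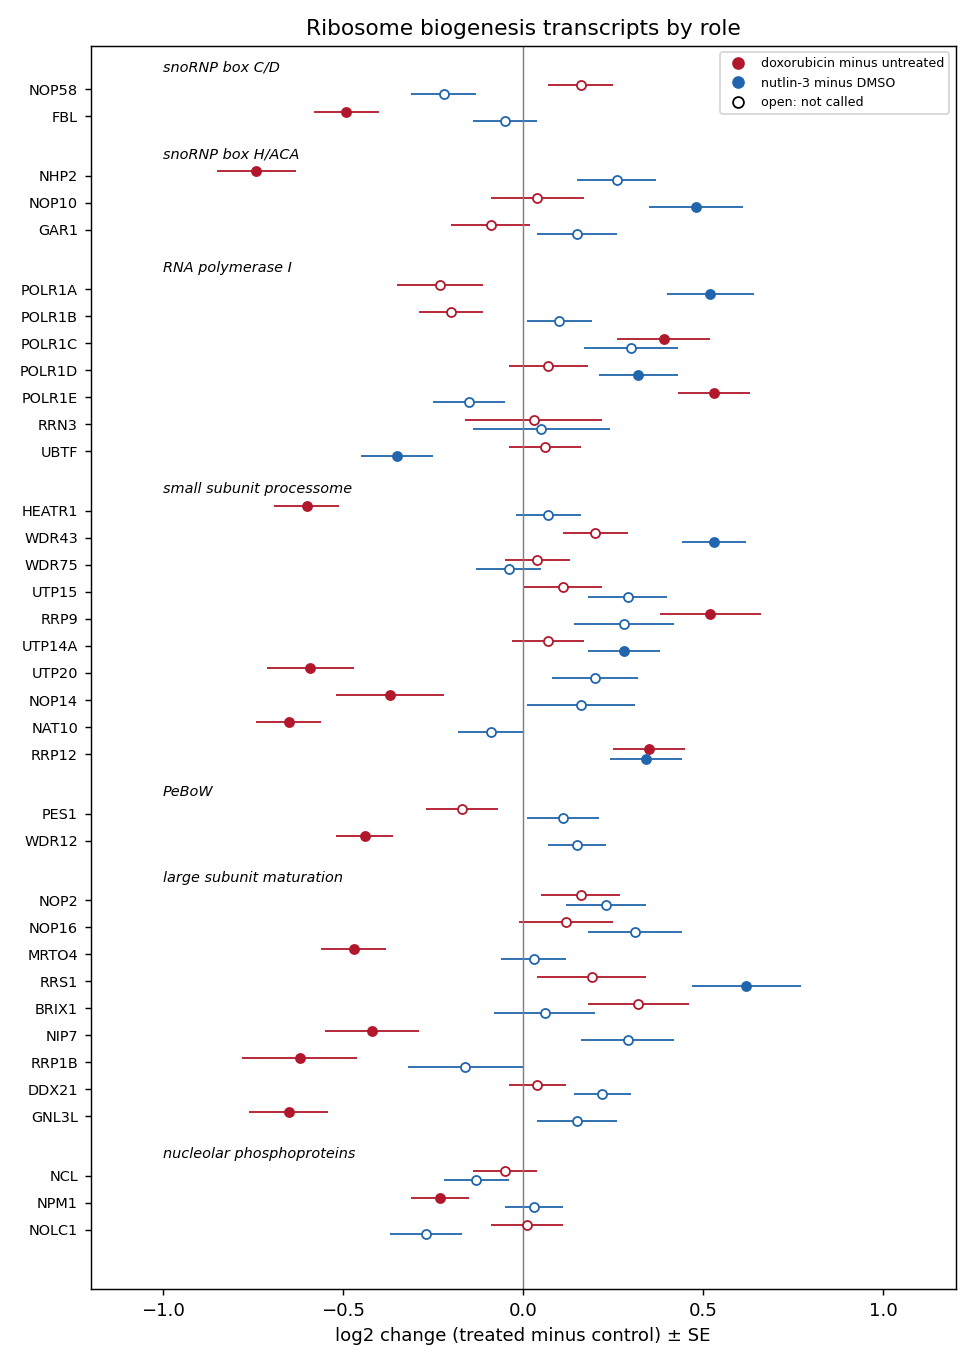
Log2 change (x axis) of the 36 ribosome biogenesis genes, grouped by role, with doxorubicin over untreated in red and nutlin-3 over DMSO in blue; points are limma estimates, bars their SE, and filled points passed an adjusted p under 0.05. Filled red points lie mostly left of 0, down to -0.74 for NHP2, while 7 of the 8 filled blue points lie right of it, up to 0.62 for RRS1.

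**Figure D2:**
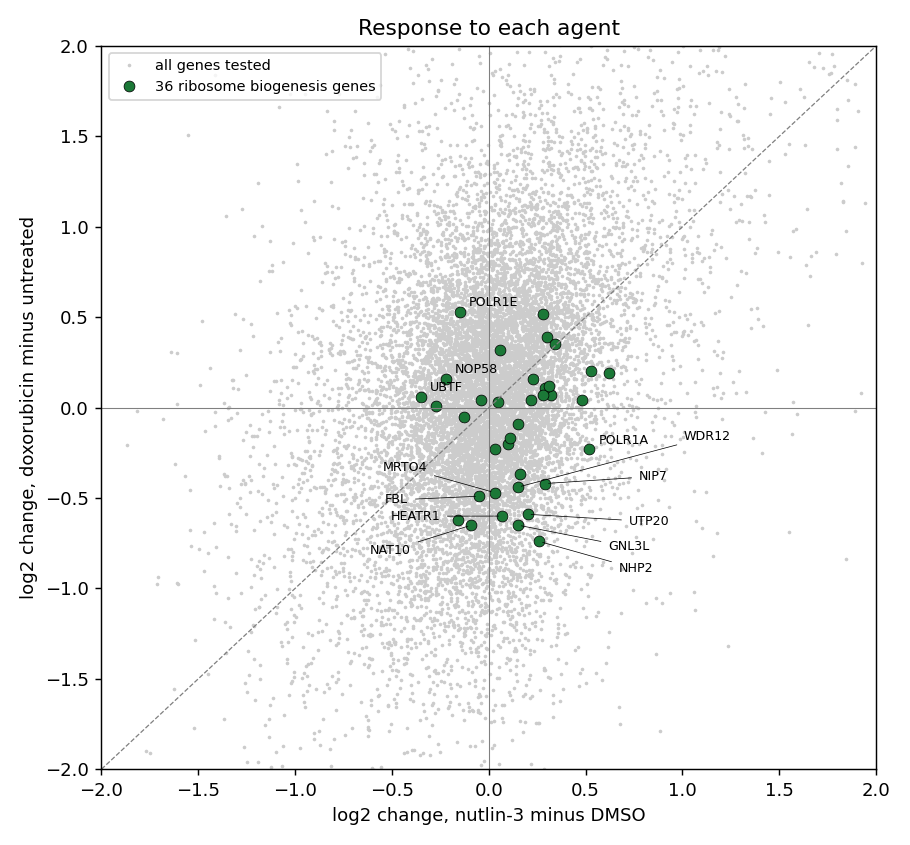
Log2 change with doxorubicin over untreated (y axis) against that with nutlin-3 over DMSO (x axis), with the 36 genes in green, all 13673 genes tested in grey and names for the 13 called different between the agents; the dashed line marks equal responses, and 431 genes lie beyond the axes, which end at 2 log2 units. The 10 named genes below the line hold 9 that fell with doxorubicin, and POLR1A, the rightmost named point.

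Among snoRNP proteins, fibrillarin and NHP2 fell with doxorubicin. FBL, the methyltransferase of box C/D snoRNPs, had signals of 5502, 5429 and 6617 with doxorubicin, against 7778, 8739 and 8000 in untreated cells. Every treated array lay below every control array, and the change was -0.49 (SE 0.09, adjusted p = 0.00034). NOP58, the scaffold protein beside it in the same particle, averaged 8486 with doxorubicin and 7595 in untreated cells and did not pass (0.16, adjusted p = 0.17). With nutlin-3 NOP58 averaged 7670 and in DMSO 8961 (-0.22, adjusted p = 0.10), and the difference between the agents passed at 0.38 (SE 0.13, adjusted p = 0.034). FBL went the other way in that test, at -0.43 (SE 0.13, adjusted p = 0.016).

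NHP2, a core protein of the H/ACA snoRNPs that pseudouridylate ribosomal RNA and of telomerase, had the largest fall of the 36 genes with doxorubicin. Its signals were 5274, 5315 and 6940 with doxorubicin, against 9430, 10505 and 9269 in untreated cells, a change of -0.74 (SE 0.11, adjusted p = 2.2e-05). With nutlin-3 they were 10671, 11489 and 13154, against 8954, 10788 and 9733 in DMSO, where the lowest nutlin-3 array lay below the highest DMSO array (0.26, adjusted p = 0.099). The difference between the agents, -1.0 (SE 0.16, adjusted p = 8.8e-05), was the largest of the 36.

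NOP10, a small partner of NHP2 in the same particles, was called with nutlin-3 and not with doxorubicin. With nutlin-3 it had 7140, 8539 and 7802, against 4541, 6187 and 6243 in DMSO. All nutlin-3 arrays were above all DMSO arrays, and the change was 0.48 (SE 0.13, adjusted p = 0.012). With doxorubicin it had 6170, 5557 and 5937, against 4585, 6479 and 6248 in untreated cells, which overlap (0.04, adjusted p = 0.80). GAR1, the remaining H/ACA protein, passed in neither comparison, at -0.09 with doxorubicin and 0.15 with nutlin-3.

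Of 7 genes of RNA polymerase I and its factors, 2 were higher and 0 lower with doxorubicin (30.1% and 25.6% of all genes), and 2 were higher and 1 lower with nutlin-3 (12.6% and 13.9% of all genes). POLR1A, the largest subunit and part of the active site, had 616, 579 and 618 with doxorubicin, against 774, 713 and 649 in untreated cells. The groups did not overlap, but the change of -0.23 missed the threshold (SE 0.12, adjusted p = 0.11). With nutlin-3 it had 912, 964 and 768, against 685, 536 and 604 in DMSO, all nutlin-3 arrays higher, and it rose by 0.52 (SE 0.12, adjusted p = 0.0029). The difference between the agents was -0.75 (SE 0.17, adjusted p = 0.0018).

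POLR1B, the second subunit of the active centre, had 1582, 1580 and 1534 with doxorubicin, against 1761, 1619 and 2060 in untreated cells. The groups did not overlap, and -0.20 did not pass (SE 0.09, adjusted p = 0.069). With nutlin-3 POLR1B had 2409, 2749 and 2582, against 2404, 2368 and 2443 in DMSO (0.10, adjusted p = 0.48). Its nutlin-3 and DMSO signals thus overlapped and both lay above all 6 others, as taken up again with the controls.

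POLR1C and POLR1D form the assembly platform shared by RNA polymerases I and III. POLR1C had 1282, 1041 and 1526 with doxorubicin, against 908, 907 and 1084 in untreated cells, with an overlap of 1 array on each side, and rose by 0.39 (SE 0.13, adjusted p = 0.014). With nutlin-3 it had 1410, 1479 and 1491, against 1100, 1123 and 1338 in DMSO, which did not overlap but gave an adjusted p of 0.092 (0.30, SE 0.13). POLR1D had 3825, 3436 and 3791 with doxorubicin, against 2962, 3992 and 3628 in untreated cells, which overlap. With nutlin-3 it had 4207, 4609 and 5279, against 3290, 4083 and 3901 in DMSO, all nutlin-3 arrays higher, and rose by 0.32 (SE 0.11, adjusted p = 0.049). This call of POLR1D held in 13 of 28 alternative settings. In the limma fit of all single-gene probe sets past the filter its adjusted p was 0.063, 0.054 and 0.45. The platform subunits were not called different between the agents.

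POLR1E, a subunit of the heterodimer that helps the enzyme initiate and elongate, rose with doxorubicin. It had 1832, 1692 and 1853 with doxorubicin, against 1128, 1170 and 1434 in untreated cells, a change of 0.53 (SE 0.10, adjusted p = 0.00016). With nutlin-3 it had 1602, 1707 and 1766, against 1818, 1908 and 1893 in DMSO, lower on all nutlin-3 arrays but not called (-0.15, adjusted p = 0.29). The difference of 0.67 (SE 0.13, adjusted p = 0.00079) was the largest upward difference of the 36. With pooled controls it was 0.08 (adjusted p = 0.48). That setting gives both agents the same control, so it sets the doxorubicin arrays directly against the nutlin-3 arrays. The untreated arrays were the low ones: doxorubicin arrays overlapped with DMSO arrays (-0.06, adjusted p = 0.58).

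RRN3, the factor that brings the polymerase to the promoter, was scattered on the untreated arrays. It had 1021, 731 and 894 with doxorubicin, against 720, 1310 and 660 in untreated cells, and 1117, 1332 and 1200 with nutlin-3, against 1152, 1076 and 1309 in DMSO. Both pairs overlap (0.03 and 0.05, adjusted p = 0.90 in each), and its probe set may also read transcripts of RRN3 pseudogenes. UBTF, the factor that keeps ribosomal DNA open, had 785, 768 and 890 with nutlin-3, against 1077, 1136 and 910 in DMSO. The nutlin-3 arrays were all lower, and UBTF fell by 0.35 on the log2 scale (SE 0.10, adjusted p = 0.020), the only fall among the 36 with this agent. With doxorubicin it had 1322, 1333 and 1151, against 1254, 1220 and 1173 in untreated cells (0.06, adjusted p = 0.66), and the difference between the agents was 0.40 (SE 0.15, adjusted p = 0.038).

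In the small subunit processome 4 of 10 genes were lower and 2 higher with doxorubicin (25.6% and 30.1% of all genes), and 3 were higher and 0 lower with nutlin-3 (12.6% and 13.9% of all genes). NAT10, which acetylates cytidines of the small subunit RNA, had the smallest adjusted p among the members with doxorubicin: 750, 760 and 727 with doxorubicin, against 1196, 1114 and 1228 in untreated cells (-0.65, SE 0.09, adjusted p = 9.6e-06). HEATR1, a long repeat protein that also supports transcription by RNA polymerase I, had 1839, 2317 and 1760 with doxorubicin, against 2924, 3015 and 2983 in untreated cells (-0.60, SE 0.09, adjusted p = 4.2e-05). Both were clear of their controls on all arrays. With nutlin-3 the signals were close to DMSO, at -0.09 for NAT10 and 0.07 for HEATR1, and the differences between the agents were -0.56 (SE 0.13, adjusted p = 0.0020) and -0.67 (SE 0.13, adjusted p = 0.00079).

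UTP20, a large scaffold of the processome, had 843, 1206 and 869 with doxorubicin, against 1502, 1353 and 1522 in untreated cells (-0.59, SE 0.12, adjusted p = 0.00045). With nutlin-3 it had 1045, 1145 and 994, against 903, 950 and 906 in DMSO, higher on all arrays but not called (0.20, adjusted p = 0.25). The difference between the agents was -0.80 (SE 0.17, adjusted p = 0.0013), and -0.14 with pooled controls (adjusted p = 0.33). The untreated arrays were the high ones: the doxorubicin arrays overlapped with the DMSO arrays (0.06, adjusted p = 0.68). NOP14, which enters with the early processome, averaged 323 with doxorubicin and 414 in untreated cells. Its groups overlap, and its call (-0.37, SE 0.15, adjusted p = 0.048) held in 12 of 29 alternative settings.

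RRP9, a protein of the U3 snoRNP, rose with doxorubicin: 531, 442 and 501, against 369, 381 and 273 in untreated cells (0.52, SE 0.14, adjusted p = 0.0043). RRP12, a factor known from yeast for the export of ribosomal subunits, had 572, 614 and 627 with doxorubicin, against 490, 451 and 469 in untreated cells (0.35, SE 0.10, adjusted p = 0.0065). With nutlin-3 RRP12 had 690, 712 and 624, against 507, 541 and 535 in DMSO (0.34, SE 0.10, adjusted p = 0.017). It was higher on all treated arrays with either agent, and the responses differed by 0.01 (SE 0.14, adjusted p = 0.97). With the mean of all its single-gene probe sets past the filter, RRP12 was at -0.03 with nutlin-3.

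The largest processome change with nutlin-3 was that of WDR43, a member of the subcomplex that first meets the precursor RNA. It had 1823, 2053 and 1930 with nutlin-3, against 1304, 1400 and 1296 in DMSO, a rise of 0.53 (SE 0.09, adjusted p = 0.00041). With doxorubicin it had 1660, 1643 and 1424, against 1252, 1354 and 1500 in untreated cells, with an overlap (0.20, adjusted p = 0.081). UTP14A, which in yeast activates a helicase of the processome, averaged 1185 with nutlin-3 and 972 in DMSO (0.28, SE 0.10, adjusted p = 0.048), a call that held in 14 of 28 alternative settings. WDR75 and UTP15, partners of WDR43 in the same subcomplex, passed with neither agent. UTP15 averaged 1404 with nutlin-3 and 1143 in DMSO (0.29, adjusted p = 0.060).

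Among 11 large subunit factors measured, the complex of PES1 and WDR12 included, 5 were lower with doxorubicin and 0 higher, against 25.6% and 30.1% of all genes. GNL3L, a nucleolar GTPase related to nucleostemin, had 495, 455 and 388 with doxorubicin, against 680, 679 and 757 in untreated cells (-0.65, SE 0.11, adjusted p = 9.3e-05). RRP1B, which targets a protein phosphatase to the nucleolus, had 2496, 2502 and 2043, against 2804, 4058 and 4066 in untreated cells (-0.62, SE 0.16, adjusted p = 0.0028). In both genes all doxorubicin arrays were lower, although untreated replicate 1 stood well below the other 2 for RRP1B. With nutlin-3 RRP1B was spread from 2763 to 4440 and was not called (-0.16, adjusted p = 0.50), and the difference between the agents did not pass either (-0.45, adjusted p = 0.11). GNL3L differed between the agents by -0.80 (SE 0.16, adjusted p = 0.00066).

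WDR12, which acts with PES1 and BOP1 in large subunit maturation, averaged 2746 with doxorubicin and 3720 in untreated cells (-0.44, SE 0.08, adjusted p = 0.00021). MRTO4, a placeholder for a ribosomal stalk protein, averaged 1937 with doxorubicin and 2675 in untreated cells (-0.47, SE 0.09, adjusted p = 0.00024). NIP7, a factor of precursor cleavage, had 1460, 1212 and 1478 with doxorubicin, against 1485, 1983 and 2139 in untreated cells (-0.42, SE 0.13, adjusted p = 0.011). None of the groups overlapped, but the highest NIP7 array with doxorubicin reached 1478 and the lowest untreated array was at 1485. With nutlin-3 NIP7 had 2233, 2634 and 2236, against 1782, 2163 and 1875 in DMSO, higher on every array but not called (0.29, adjusted p = 0.12), and its difference between the agents was -0.70 (SE 0.18, adjusted p = 0.0055). The differences of WDR12 and MRTO4 were -0.59 (SE 0.12, adjusted p = 0.00072) and -0.49 (SE 0.12, adjusted p = 0.0046). PES1 itself passed with neither agent (-0.17 and 0.11).

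RRS1, which with RPF2 brings the 5S particle into the large subunit, had the largest rise with nutlin-3. It had 2743, 3470 and 3152 with nutlin-3, against 1745, 2133 and 2216 in DMSO (0.62, SE 0.15, adjusted p = 0.0049), with all nutlin-3 arrays higher. With doxorubicin it had 2030, 1759 and 1437, against 1905, 1414 and 1290 in untreated cells, which overlap (0.19, adjusted p = 0.30). NOP2, an RNA cytosine methyltransferase, NOP16 and BRIX1, known in yeast as factors of the large subunit precursor, and the helicase DDX21 were not called with either agent. The closest to the threshold were BRIX1 with doxorubicin (0.32, adjusted p = 0.052) and DDX21 with nutlin-3 (0.22, adjusted p = 0.054).

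Of the nucleolar phosphoproteins, nucleophosmin was called with doxorubicin and nucleolin with neither agent. NCL, which binds precursor RNA and ribosomal DNA, averaged 15910 with doxorubicin and 16432 in untreated cells, and 16721 with nutlin-3 and 18370 in DMSO. NPM1, a histone chaperone of the granular nucleolus, had 27581, 31661 and 27988 with doxorubicin, against 34503, 34011 and 33611 in untreated cells, lower on all arrays (-0.23, SE 0.08, adjusted p = 0.018). It was at 0.03 with nutlin-3, and transcripts of its many pseudogenes may share its probes. NOLC1, a chaperone of snoRNPs, was at 0.01 with doxorubicin, and had 2340, 2585 and 2441 with nutlin-3, against 2872, 2965 and 3034 in DMSO, lower on all arrays but not called (-0.27, adjusted p = 0.063).

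**Figure D3:**
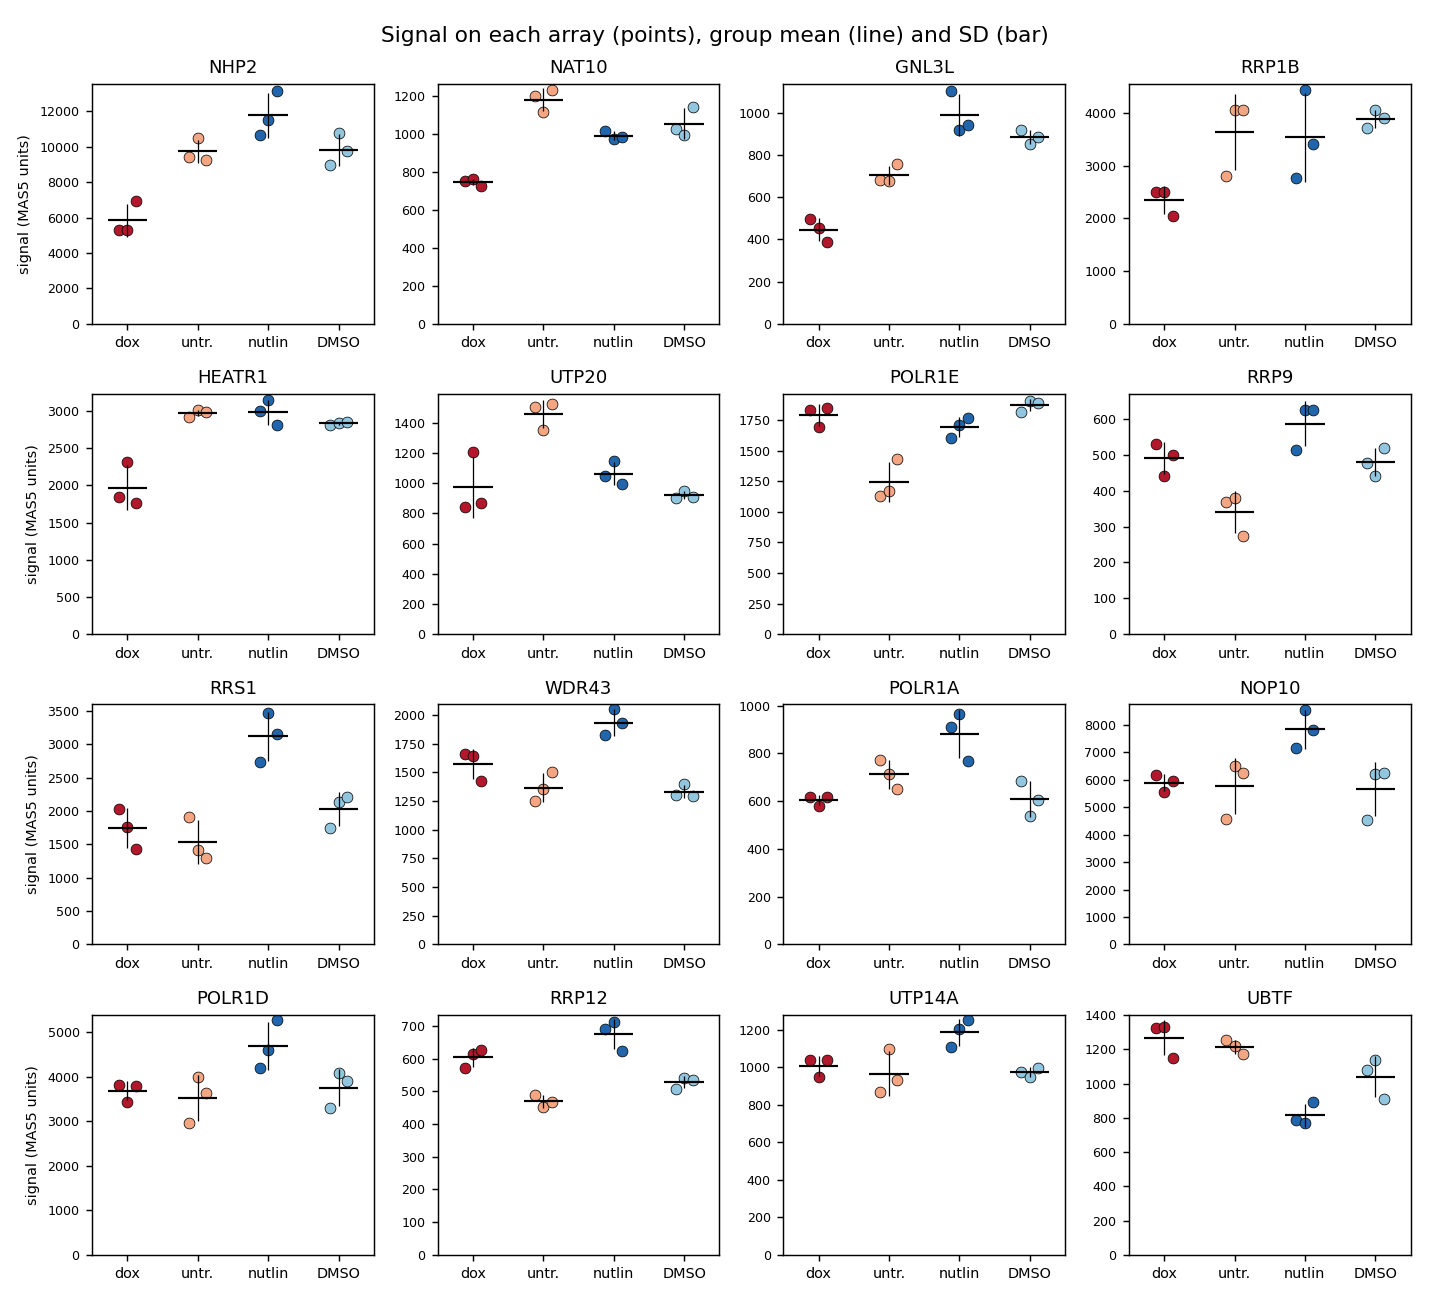
Signal (y axis, MAS5 units, from 0) of 16 genes on each of 3 arrays per group: doxorubicin (dox), untreated (untr.), nutlin-3 (nutlin) and DMSO; points are arrays, lines group means and bars SD. NHP2, NAT10, GNL3L and HEATR1 are low on the 3 doxorubicin arrays, RRS1 and WDR43 are high on the 3 nutlin-3 arrays, and POLR1E and UTP20 differ between the untreated and DMSO arrays.

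The controls themselves differed. Between DMSO and untreated cells 8 of the 36 genes (22.2%) were higher and 3 (8.33%) lower, against 8.17% and 6.06% of all genes, and the median was 0.11, against 0.02. With median centring, which put the median of all genes at 0.15, 11 were higher and 1 lower, against 11.5% and 2.88% of all genes. Higher calls were then 91.7% of the members' calls in place of 72.7%, and over all genes 80.0% in place of 57.4%. NOP2 was the largest, with 1230, 1331 and 1370 in DMSO, against 691, 609 and 832 in untreated cells (0.88, SE 0.11, adjusted p = 0.00011). UTP15 had 1199, 1107 and 1123 in DMSO, against 766, 832 and 658 in untreated cells (0.60, SE 0.11, adjusted p = 0.0018). POLR1E was higher in DMSO by 0.59 (SE 0.10, adjusted p = 0.00068) and POLR1B by 0.41 (SE 0.09, adjusted p = 0.0067), with no overlap of the groups in any of these genes.

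RRP9, NOLC1, DDX21 and WDR75 made up the rest of the higher genes, between 0.27 and 0.49. UTP20 was lower in DMSO, at 903, 950 and 906, against 1502, 1353 and 1522 in untreated cells (-0.65, SE 0.12, adjusted p = 0.0018). MRTO4 (-0.28, adjusted p = 0.043) and NPM1 (-0.27, adjusted p = 0.028) were the other two that were lower. These comparisons share the untreated arrays with the doxorubicin comparison and the DMSO arrays with the nutlin-3 comparison. Without DMSO replicate 2 or 3 the higher calls were 5 and 4, and without untreated replicate 2, DMSO replicate 1 or DMSO replicate 3 the lower calls were 1. Beside these changes, the epithelial markers summed to 1082 to 1282 in DMSO and 2059 to 2233 in untreated cells, with KRT14 and EPCAM called lower. The leukocyte markers summed to 295 to 307 in DMSO and 395 to 524 in untreated cells, with CD79A called lower (140 in DMSO, 259 in untreated cells). The ACTB ratio of 3′ to 5′ signal averaged 1.28 ± 0.0281 in DMSO and 1.53 ± 0.0754 in untreated cells, and that of GAPDH 0.942 ± 0.0102 in DMSO and 1.02 ± 0.0356 in untreated cells (SD, n = 3 each; exact permutation p = 0.1 for both). Their part was not tested, and the solvent and any other difference between these control groups cannot be told apart.

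Each agent was therefore also set against the other control, a comparison added after the data were seen. Against DMSO, 9 of the 12 genes lower with doxorubicin were still called lower: FBL, NHP2, HEATR1, NOP14, NAT10, WDR12, NIP7, RRP1B and GNL3L, with NHP2 at -0.76 (SE 0.11, adjusted p = 1.8e-05) and GNL3L at -0.97 (SE 0.11, adjusted p = 1.1e-06). UTP20 (0.06), MRTO4 (-0.19) and NPM1 (0.04, in its brightest probe set) were not. None of the 4 genes higher with doxorubicin was called against DMSO: POLR1C was at 0.10, POLR1E at -0.06, RRP9 at 0.03 and RRP12 at 0.19. In all, 16 were lower and 3 higher against DMSO, while 28.2% of all genes were lower and 31.5% higher, with NOP2 at -0.72 (SE 0.11, adjusted p = 3.5e-05) and POLR1B at -0.61 (SE 0.09, adjusted p = 2.1e-05).

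Nutlin-3 against untreated cells gave 18 higher and 5 lower, while 21.3% of all genes were higher and 18.5% lower. Of the 7 genes higher against DMSO, 6 were called again, and POLR1A was at 0.30 (SE 0.12, adjusted p = 0.053). UBTF was lower against either control (-0.57 against untreated cells, SE 0.10, adjusted p = 0.00033). The largest rises were in NOP2 (1.11, SE 0.11, adjusted p = 7.7e-07), RRS1 (1.03, SE 0.15, adjusted p = 3.7e-05) and UTP15 (0.89, SE 0.11, adjusted p = 7e-06), of which NOP2 and UTP15 were not called against DMSO.

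**Figure D4:**
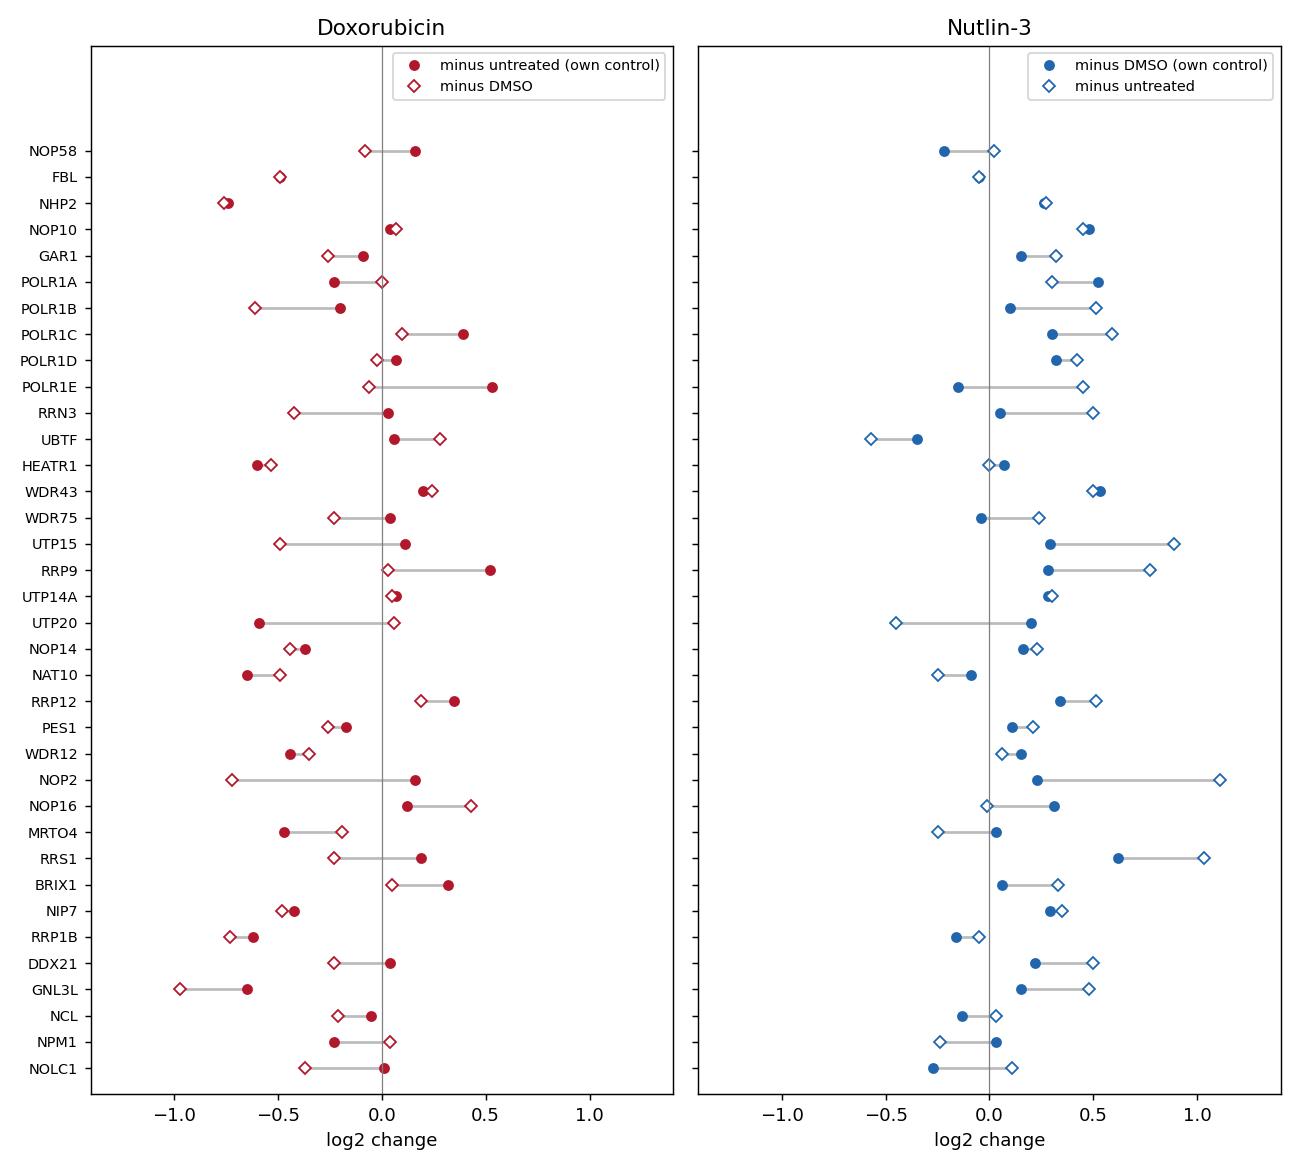
Log2 change (x axis) of each of the 36 genes with doxorubicin (left) and nutlin-3 (right), against the control of that agent (filled circles) and against the other control (open diamonds), joined by a grey line. FBL, NHP2 and HEATR1 keep their place on the left, while POLR1E, RRP9, UTP20 and NOP2 move by 0.49 to 0.88 between controls.

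Other probe sets of the same genes gave a second reading of 19 of the 36 genes, and only single-gene probe sets past the filter are counted here. With doxorubicin the calls differed among probe sets in 8 genes and with nutlin-3 in 4, with calls in opposite directions in 0 genes for either agent. The fall of HEATR1 was called in all 3 probe sets past the filter (-0.60, -0.94 and -0.55), and those of MRTO4 (-0.47 and -0.60) and RRP1B (-0.62 and -0.91) in both. GNL3L was lower in 2 of 4 (-0.65 and -1.01) and not called in the others (-0.28 and 0.14). NPM1 spread most, with -0.23, -0.92 and -1.38, all called lower. The latter 2 also differed between the agents (-0.93, adjusted p = 8.9e-05, and -1.31, adjusted p = 8.1e-07), unlike the brightest (-0.26). The probe set at -1.38 read 4383, 4687 and 4997 with doxorubicin, against 9776, 10937 and 11023 in DMSO. NOLC1, at 0.01 in its brightest probe set, was called lower in its other 2 (-0.30 and -0.79), and POLR1B was lower in 1 of 4 (-0.84). NIP7 was lower in 1 of 2, with the other at 0.02 (adjusted p = 0.89), and WDR12 in 1 of 3 (-0.44, against -0.30 and -0.36). DDX21, not called in its brightest probe set, was called higher in its other one with both agents (0.26 with doxorubicin and 0.25 with nutlin-3). POLR1E was called higher in 2 of 3 (0.53 in both) and the remaining one was at 0.13. With nutlin-3, POLR1A was higher in 1 of 3 (0.52, against 0.09 and 0.20), and UBTF lower in 2 of the 4 past the filter (-0.35 and -0.44, against -0.22 and -0.10). Between the controls, the probe sets of UTP15 were called in opposite directions (0.60 and -0.68).

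**Figure D5:**
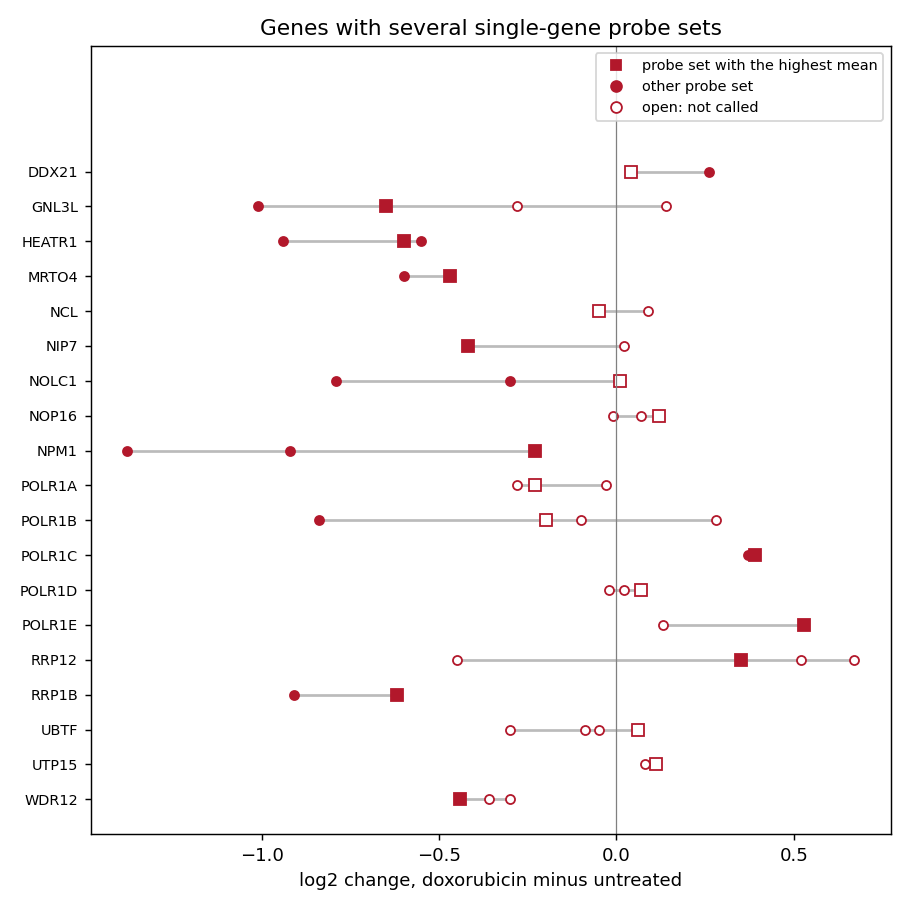
Log2 change with doxorubicin over untreated (x axis) in every single-gene probe set past the filter, for the 19 genes with more than 1; squares mark the probe set with the highest mean signal, circles the others, and filled symbols passed an adjusted p under 0.05. HEATR1, MRTO4, RRP1B and NPM1 are filled and left of 0 throughout, and POLR1B and RRP12 straddle 0.

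The wider pathway was read from 6 further lists, of which 155 of 164 genes were tested. With doxorubicin 40 were higher and 46 lower (median -0.01), where 30.1% and 25.6% of all genes were. With nutlin-3 26 were higher and 9 lower (median 0.09), where 12.6% and 13.9% of all genes were. These shares are the background of each list below. The difference between the agents was higher in 24 and lower in 39 (median -0.11), against 21.8% and 17.7% of all genes. Of 48 other small subunit factors, 8 were higher (16.7%) and 14 lower (29.2%) with doxorubicin, and 10 were higher (20.8%) and 0 lower with nutlin-3. The helicase DDX10 had a mean of 942 ± 109 with doxorubicin, against 2346 ± 227 in untreated cells (SD, n = 3 each), a log2 change of -1.30, and UTP18 was at -0.91. UTP3, also of the small subunit processome, was at 1.19 with doxorubicin and 0.61 with nutlin-3, UTP25 was at 0.87 with doxorubicin, and RCL1, needed in yeast for precursor cleavage, was at 0.54 with nutlin-3.

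Other large subunit factors were even with doxorubicin, at 12 higher and 12 lower of 42, and with nutlin-3 8 were higher and 0 lower. WDR18 fell by 1.07 on the log2 scale with doxorubicin, and RPF2, the partner of RRS1, by 0.68. ZNF622 was higher at 0.89 and WDR74 at 0.78 with doxorubicin, and DDX31 at 0.54 and URB1 at 0.47 with nutlin-3. Exosome and trimming factors, which cut back the ends of precursor RNA, had 6 of 22 higher and 8 lower with doxorubicin, and 0 higher and 4 lower with nutlin-3. EXOSC8, a ring subunit of the exosome, was lower with both agents, at a log2 change of -1.32 with doxorubicin against untreated cells and, with nutlin-3, at 2283 ± 176 against 3541 ± 146 in DMSO (SD, n = 3 each; -0.63). EXOSC5 was at -1.10 with doxorubicin, whereas EXOSC4 (0.89) and the nuclease DIS3 (0.49) were higher. RPP30, a protein of ribonuclease P, was at -0.35 with nutlin-3.

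Other RNA polymerase I genes had 7 of 16 higher and 3 lower with doxorubicin, and 4 higher and 3 lower with nutlin-3. The subunits shared by all 3 nuclear polymerases split: POLR2L (1.07) and POLR2H (1.04) rose with doxorubicin and POLR2E (-0.96) fell, and with nutlin-3 POLR2L (0.35) rose and POLR2E (-0.33) fell. TAF1A, of the promoter selectivity factor, fell with doxorubicin (-0.68). TCOF1, the treacle scaffold of ribosomal DNA, fell (-0.48) and the subunit POLR1H rose (0.42) with nutlin-3. Of 21 RNA polymerase III genes, 5 were higher and 8 lower with doxorubicin and 2 higher and 2 lower with nutlin-3. The alternative subunits POLR3G and POLR3GL moved apart: POLR3G had a mean of 159 ± 11.6 with doxorubicin, against 415 ± 73.7 in untreated cells (-1.29; SD, n = 3 each), and POLR3GL rose by 0.97 with doxorubicin and by 0.82 with nutlin-3. POLR3F (1.05) was higher and POLR3B (-0.63) lower with doxorubicin, and with nutlin-3 GTF3C6 (0.73) was higher and POLR3K (-0.40) and GTF3C5 (-0.37) were lower.

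The last list held genes around the 5S particle and its sensing by MDM2, and also SHQ1, an H/ACA assembly chaperone. Of its 6 genes tested, 2 were higher and 1 lower with doxorubicin, and 2 were higher with nutlin-3. The 2 higher with doxorubicin were MDM2, the check used above, and SHQ1 (0.28). HEATR3, which escorts the ribosomal proteins of that particle, was lower with doxorubicin (-0.41). With nutlin-3, MDM2 and RPL11, a ribosomal protein that binds MDM2 (0.23), were higher.

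Gene length was set beside the changes because doxorubicin calls over all genes went with it. Genes called lower spanned a median of 46.6 kb and those called higher 24.2 kb over all genes. The members called lower and higher had nearly equal medians, 31.0 and 31.4 kb, and those not called had 20.6 kb. Across genes, which are not independent replicates, Spearman's rho between span and change was -0.17 in the 36 members and -0.18 over 13658 genes with a span.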

How the data were processed

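The deposited table held 1 linear signal intensity for each of 54675 probe sets on 12 arrays. The authors' tool for these intensities was MAS5, per the submitters' processing notes. Version, settings and detection calls are not given in the sources used here. Medians of arrays lay between 79.6 and 113.6. Per the platform annotation, 41091 probe sets had 1 gene symbol, 1801 had several and 11777 were not listed. The 62 control probe sets were dropped, and so were those with a mean below the 40th percentile, a signal of 49.3. Each gene was read from the single-gene probe set with the highest mean signal.

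Tests used limma 3.58.1 in R 4.3.3 on log2(value + 16), a scale that understates the change of dim genes: lmFit with 4 group means, eBayes with an intensity trend, and Benjamini-Hochberg adjustment over 13673 genes, with a threshold of 0.05. SE are limma's. Other probe sets were read from a fit of 26393 probe sets. The test was tried on simulated data first. RNA quality ratios were compared with exact 2-sided permutation tests. With 3 arrays a group, precision is limited by their number.

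The members, the pathway and marker lists and the tests were chosen with earlier results of these data known, so counts over a list carry no test. Values by array were given mainly for called genes whose groups did not overlap, though not for all of them, and for the RNA polymerase I group. From each pathway list up to 2 called genes per direction and agent were named. Other genes were given by means or changes. Alternatives covered scaling, pseudocounts of 1 and 64, the filter, the choice of probe set, the trend, array weights, smaller fits, a replicate block, each array left out, pooled and exchanged controls, a stricter adjusted p of 0.01 and a 2-fold minimum.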

Additional observations from a re-analysis of the deposited data

Results flagged for a closer look

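The following genes were singled out because the doxorubicin response minus the nutlin-3 response passed the limma test of the difference itself. In POLR1E (0.67), UBTF (0.40) and NOP58 (0.38) the doxorubicin response was the higher. POLR1E lost this call with pooled controls (0.08), UBTF in 15 of 27 alternatives and NOP58 in 11 of 27. POLR1E was called higher with doxorubicin against untreated cells and not against DMSO, UBTF fell with nutlin-3, and NOP58 was called with neither agent alone.

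The doxorubicin response was the lower in NHP2 (-1.0), GNL3L (-0.80), UTP20 (-0.80), POLR1A (-0.75), NIP7 (-0.70), HEATR1 (-0.67), WDR12 (-0.59), NAT10 (-0.56), MRTO4 (-0.49) and FBL (-0.43). POLR1A stands out in this set because it was called with nutlin-3 and not with doxorubicin, and the other 9 were called with doxorubicin and not with nutlin-3. UTP20 lost its call with pooled controls (-0.14). UTP20 and MRTO4 were also lower in DMSO than in untreated cells (log2 changes of -0.65 and -0.28).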

How the results depend on the processing

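With doxorubicin the 12 lower calls lay between 10 and 12 when any array was left out, and FBL, NHP2, HEATR1, NAT10, WDR12 and GNL3L were called in 28 of 29 alternatives, all except a change of at least 2-fold, under which 0 genes were lower and 0 higher. The 4 higher calls became 1 with median centring, and 3 to 7 with an array left out (7 without untreated replicate 3). The 7 genes higher with nutlin-3 became 3 with median centring, 4 without _x_at and _s_at probe sets, 14 with array weights, 12 in a fit of 6 arrays, 16 with pooled controls, 18 against untreated cells, 3 at an adjusted p under 0.01 and 0 at 2-fold, and 3 to 9 with an array left out (3 without DMSO replicate 1 or nutlin-3 replicate 2). The 1 gene lower with nutlin-3 became 2 with array weights or 6 arrays, 5 against untreated cells and 0 at an adjusted p under 0.01 or at 2-fold, and 0 to 2 with an array left out. Where no share of all genes is given for a setting, here or elsewhere, these counts are not read as a result about the members.

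For the difference between agents, the 3 higher calls became 1 with median centring, no trend, pooled controls or an adjusted p under 0.01, 0 at 2-fold, and 1 to 3 with an array left out. The 10 lower calls became 22 with pooled controls, where doxorubicin arrays are set directly against nutlin-3 arrays. That is another contrast, and without the share of all genes called in it the count is not read as a result about the members. The 10 lower calls became 1 at 2-fold (NHP2), and 10 to 13 with an array left out. Where no share of all genes is stated for a setting, the counts stand without that background. For DMSO against untreated, the 8 higher calls became 5 with the mean of all probe sets or no trend, 4 at an adjusted p under 0.01, 0 at 2-fold and 4 to 9 with an array left out (4 without DMSO replicate 3). The 3 lower calls became 1 with median centring, the mean of probe sets, no trend or an adjusted p under 0.01, 0 at 2-fold, and 1 to 3 with an array left out.

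The sign of a gene's change turned in 136 of 3960 recomputed values. In 19 of them the change was called with or without the alternative, as follows. Against DMSO, doxorubicin values were -0.06 for POLR1E, -0.23 for WDR75, -0.49 for UTP15, 0.06 for UTP20, -0.72 for NOP2, -0.23 for DDX21, 0.04 for NPM1 and -0.37 for NOLC1, and NOP2 was at -0.28 with pooled controls. Against untreated cells, nutlin-3 values were 0.45 for POLR1E, 0.24 for WDR75, -0.45 for UTP20, -0.25 for MRTO4 and -0.24 for NPM1. With the mean of all probe sets past the filter NOLC1 was at -0.36 with doxorubicin, RRP12 at -0.03 with nutlin-3 and UTP15 at -0.04 between the controls. Without _x_at and _s_at probe sets POLR1B was at -0.12 and NOP16 at 0.49 between the controls. The cause of these changes was not tested.

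Replicate numbers are shared by the groups. Deviations of same-numbered arrays correlated at -0.09 to 0.17, and 3 of 12 arrays correlated best with their own number, so the numbers were not taken as pairs. With the replicate block, doxorubicin gave 4 higher and 12 lower, nutlin-3 10 and 2, the difference 3 and 12, and DMSO against untreated 8 and 4. Over all genes 30.7% were then higher and 26.5% lower with doxorubicin, and 13.7% and 14.7% with nutlin-3. For the difference the shares were 22.8% and 18.8%, and for DMSO against untreated 9.84% and 6.93%.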

Other observations

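The arrays carry control probe sets against ribosomal RNA, the product of RNA polymerase I, and these were looked at after the members' values were seen. Priming from poly-A tails copies ribosomal RNA only incidentally, so these signals are not a measure of its amount. The 5′ probe set of the 18S RNA had 18725, 18208 and 14682 with doxorubicin, against 31480, 28647 and 28040 in untreated cells, and 10172, 10048 and 9875 with nutlin-3, against 10460, 11183 and 9178 in DMSO. The untreated arrays were the high ones: DMSO over untreated had a ratio of 0.349, doxorubicin over untreated 0.583 and nutlin-3 over DMSO 0.98. The 5′ probe set of the 28S RNA gave 0.308 for DMSO over untreated, 0.534 for doxorubicin over untreated and 1.22 for nutlin-3 over DMSO. For the same pairs the middle probe set of the 28S RNA gave smaller gaps, at 0.698, 0.736 and 1.08. That of the 18S RNA gave 0.289, 0.5 and 0.996. The exact 2-sided permutation p of the ratios with untreated cells was 0.1, the smallest that 3 arrays against 3 allow. For nutlin-3 over DMSO this p was 0.7 for the 18S and 0.3 for the 28S 5′ probe set.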
